A study of Homo sapiens with 52 samples.

Results

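NRP2 encodes neuropilin-2, the paralogue of the receptor that the siRNAs and shRNAs of this study were designed against, neuropilin-1. Its members were found by symbol, and the rule uses no measured value: 1 of the 78894 genes in the gene tables and, at the transcript level, the 17 transcripts named for NRP2 among 387954. The gene (ENSG00000118257.17) lies on the plus strand of chromosome 2 at chr2:205681990-205798133 (GRCh38).

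Neuropilins are single-pass membrane proteins with a short cytoplasmic tail and no kinase domain. They act as co-receptors: with plexins they receive class 3 semaphorins, and with the VEGF receptor tyrosine kinases they receive members of the VEGF family. Neuropilin-2 is best known for binding SEMA3F and VEGFC, for axon guidance and for the growth of lymphatic vessels. Its RNA is spliced into an a-type form, whose tail ends in a PDZ-binding motif like that of neuropilin-1 and can bind the adaptor GIPC1, a b-type form with an unrelated membrane-spanning end and tail, and a shorter secreted form that lacks both.

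Poly(A) RNA was sequenced from 3 human breast cancer cell lines classed as claudin-low, a subtype with low tight-junction and epithelial gene expression. SUM159PT gave 17 samples, MDA-MB-231 18 and HS578T 17. Each line was either transfected for 72 hrs with 20 nM of siRNA, a non-targeting control (siNT) or the NRP1-targeting siNRP1#3 or siNRP1#5, or made to carry a lentiviral shRNA, non-targeting (shNT) or NRP1-targeting (shNRP1#3 or shNRP1#5), with puromycin selection and RNA taken 48 hrs after the cells were seeded. This gave 18 groups of 3 samples, except SUM159PT siNRP1#5 and HS578T shNRP1#3 with 2 each. siNRP1#5 and shNRP1#5 share their target sequence, whereas the reagents numbered 3 do not share theirs and were aimed at the membrane-spanning form of NRP1. The shRNA cultures are transduced populations whose replicates were consecutive passages. Delivery, selection and time of harvest differ together between siRNA and shRNA and cannot be told apart, so each siRNA was compared with siNT and each shRNA with shNT. The 2 knockdowns of a delivery share their control samples.

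The annotation defines 3 a-type transcripts (NRP2-203, NRP2-204 and NRP2-205), 2 b-type transcripts (NRP2-201 and NRP2-202), 1 soluble transcript (NRP2-206) and 11 transcripts with no complete coding end. The sequences where the main forms part are shown because they tell the forms of the isoform results apart. They are stretches of the GRCh38 plus strand, joined as the transcripts are spliced. All lines of the first set open with the same 21 bases of a shared exon (chr2:205766783-205766803), and capitals mark what follows. The longer form of that exon adds 15 bases (chr2:205766804-205766818). NRP2-203 and NRP2-204 continue into the exon at chr2:205792235-205792285 and the b-type transcripts into their last exon, of which chr2:205776246-205776296 is printed.
NRP2-204: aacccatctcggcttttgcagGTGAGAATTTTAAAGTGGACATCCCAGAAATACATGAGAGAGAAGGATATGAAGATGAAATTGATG
NRP2-203: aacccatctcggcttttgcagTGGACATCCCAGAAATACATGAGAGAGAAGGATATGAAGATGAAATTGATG
NRP2-201: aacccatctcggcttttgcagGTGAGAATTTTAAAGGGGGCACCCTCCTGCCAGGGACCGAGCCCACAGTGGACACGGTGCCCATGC
NRP2-202: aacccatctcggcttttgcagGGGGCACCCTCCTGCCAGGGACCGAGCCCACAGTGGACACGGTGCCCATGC

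The soluble transcript leaves the others earlier. The last 30 bases of the exon it extends (chr2:205743523-205743552) are in lower case. In NRP2-206 the capitals run on into the intron (chr2:205743553-205743579) up to and including its stop codon, whereas in NRP2-203 they are the start of the next exon.
NRP2-206: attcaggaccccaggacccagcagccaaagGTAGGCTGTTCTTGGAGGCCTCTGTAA
NRP2-203 at the same exon end: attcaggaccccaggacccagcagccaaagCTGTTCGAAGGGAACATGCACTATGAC

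These ends give proteins of 926 codons for NRP2-203, 931 for NRP2-204, 909 for NRP2-205, 906 for NRP2-201, 901 for NRP2-202 and 555 for NRP2-206. NRP2-203, NRP2-205 and NRP2-202 have no base that another NRP2 transcript does not also cover, NRP2-204 has 3 and NRP2-206 has 5, so the assignment of reads among them depends on splice junctions and on the counting model. NRP2-201 has 2558 bases of its own, in its long last exon. NRP2-214, annotated as a retained intron, is a short transcript of 1072 bases at the 5′ end of the gene, with exons at chr2:205682658-205683363 and chr2:205697544-205697909, and 175 bases of its own. Between the 14 NRP1 and the 17 NRP2 transcripts, the longest run of bases shared on the same strand was 20 long, printed because the reagents were designed against NRP1 and a shared run is where both genes could be matched.
NRP2-203 run shared with NRP1: cccatcctcatcaccatcat
NRP2-203 second run shared with NRP1: tcaacttcaaccctcactt
The first run lies at chr2:205794852-205794871 in NRP2 and at chr10:33180263-33180282, on the minus strand, in NRP1. The second, of 19 bases, lies at chr2:205697679-205697697 and at chr10:33330732-33330750, again on the minus strand in NRP1. None of the NRP1-targeting sequences that the authors give lies in either run. Matches of part of a reagent were not tested. Shared runs under 19 bases are not listed.

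Total expected counts, the reads that the counting model assigned to genes, ranged from 25310443 to 72003442 per sample with a median of 44804505. NRP2 received 202 to 5895 of them with a median of 906, and was thinnest in SUM159PT, with 202 to 1439. Checked against markers in the non-targeting controls, all 3 lines had low CDH1, the epithelial cadherin, at no more than 0.75 TPM (a level scaled to transcript length and to the library) in any sample, and high VIM, the mesenchymal intermediate filament, at 2303 to 6093 TPM. The claudins CLDN3, CLDN4 and CLDN7 averaged under 1 TPM in SUM159PT and HS578T. In MDA-MB-231 they averaged 9.33, 161 and 43.2 TPM, which goes against the claudin-low class for these 3 genes. RNA typical of another line was found in some libraries: over 15 genes silent in HS578T controls and high in MDA-MB-231, the 3 HS578T siNRP1#5 samples carried 8.51 to 15.5% of the MDA-MB-231 level, against 0.532 to 1.09% in HS578T siNT. One of these 3 samples also carried 6.14% of the SUM159PT level over the 13 genes that mark that line, and 1 MDA-MB-231 shNRP1#3 sample carried 3.30% of the HS578T level. The HS578T siNRP1#3 samples carried 1.49 to 4.37% of the MDA-MB-231 level. The NRP2 log2 fold changes of both HS578T siRNA groups are also given after an estimate of the RNA of both other lines was subtracted, whereas levels, shares and TPM are as deposited. In SUM159PT shNRP1#5 this subtraction removed 10.3% of the NRP2 counts of replicate 2, which carried 1.03% of the MDA-MB-231 level. It removed 5.46% in replicate 1 and 0.444% in replicate 3.

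NRP2 was detected in every sample. Its level ranged from 1.82 to 38.8 TPM over the 52 samples, and NRP1 ranged from 0.48 to 101 TPM. The highest group mean was that of MDA-MB-231 shNT, at 32.8 ± 8.00 TPM (SD, n = 3), followed by HS578T siNT at 18.6 ± 4.28, HS578T siNRP1#5 at 16.2 ± 2.07, MDA-MB-231 shNRP1#3 at 15.0 ± 1.63 and MDA-MB-231 siNT at 13.6 ± 1.31 TPM. HS578T siNRP1#3 (13.6 ± 3.47 TPM), MDA-MB-231 shNRP1#5 (11.8 ± 2.17) and MDA-MB-231 siNRP1#5 (10.1 ± 2.65) came next. In the middle of the order were SUM159PT shNT (8.97 ± 0.308 TPM), HS578T shNRP1#3 (8.23 ± 0.764, n = 2), HS578T shNRP1#5 (6.83 ± 2.12) and HS578T shNT (6.22 ± 0.159). The lowest 6 groups were MDA-MB-231 siNRP1#3 (5.37 ± 1.11 TPM) and the other 5 groups of SUM159PT, from shNRP1#3 (4.79 ± 0.722) and siNT (4.21 ± 1.81) through shNRP1#5 (3.68 ± 1.95) and siNRP1#3 (3.68 ± 1.81) to siNRP1#5 (2.89 ± 1.51, n = 2). Of the 17 pairs of neighbouring groups in this TPM order, 1 had ranges that did not overlap and a gap larger than the larger SD, MDA-MB-231 shNT (23.7 to 38.8 TPM) over HS578T siNT (15.4 to 23.4 TPM). The other neighbours overlapped.

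**Figure D1:**
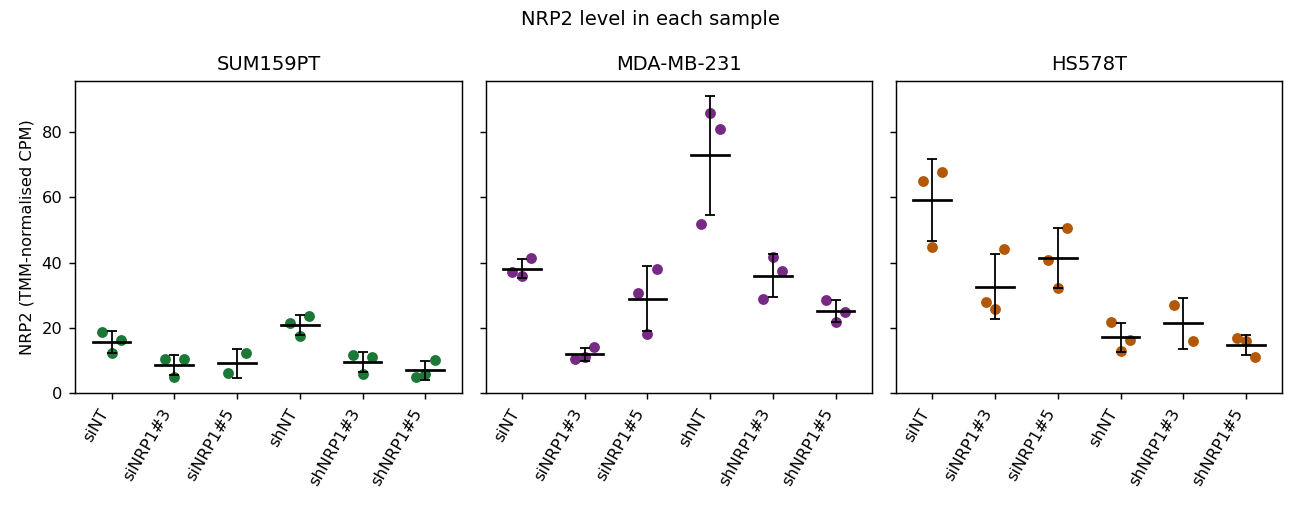
NRP2 level in each of the 52 samples, in CPM, read counts scaled to TMM library sizes (vertical axis), by cell line and treatment; points are samples and bars are the group mean with its SD. The level ran from 5.06 to 85.6, with MDA-MB-231 shNT highest.

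The non-targeting controls show how the 3 lines differ in NRP2 before NRP1 is targeted. Over siNT and shNT together, NRP2 averaged 23.2 ± 11.7 TPM in MDA-MB-231, 12.4 ± 7.29 in HS578T and 6.59 ± 2.85 in SUM159PT (SD, n = 6 each). In edgeR's quasi-likelihood test over all 52 samples, with Benjamini-Hochberg adjustment over 23416 genes, NRP2 was lower in SUM159PT than in MDA-MB-231 by a log2 fold change of -1.54 (SE 0.222, adjusted p = 1.18e-07). It was also lower in HS578T than in MDA-MB-231 (-0.73, SE 0.218, adjusted p = 0.003207) and higher in HS578T than in SUM159PT (0.81, SE 0.219, adjusted p = 0.001459). Differences between the lines were common, and 59.4%, 70.2% and 63.5% of all genes were called in these 3 comparisons. They average siNT and shNT, and the order of the lines changed with delivery. With siNT alone HS578T had the highest mean (18.6 TPM, against 13.6 in MDA-MB-231 and 4.21 in SUM159PT). With shNT alone it had the lowest (6.22 TPM, against 32.8 in MDA-MB-231 and 8.97 in SUM159PT). Averaged over both controls, NRP1 had another order, 0.95 higher on the log2 scale in SUM159PT than in MDA-MB-231 (adjusted p = 1.218e-05). NRP2 made up 36.5% of the summed neuropilin TPM in the siNT samples of HS578T, 32.2% in those of MDA-MB-231 and 6.47% in those of SUM159PT. In the shNT samples the share was 14.2% in HS578T, 27.7% in MDA-MB-231 and 9.85% in SUM159PT.

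These averages hide that the siNT and shNT controls of a line differed, and in opposite directions. In MDA-MB-231 NRP2 was at 37.2, 36.0 and 41.4 CPM (read counts scaled to the library size by the TMM method) with siNT and at 51.9, 85.6 and 80.7 with shNT. In HS578T it was at 64.9, 44.7 and 67.8 CPM with siNT and at 21.8, 13.1 and 16.5 with shNT. In neither line did the control groups overlap. NRP2 was higher with shNT in MDA-MB-231 (log2 fold change 0.90, SE 0.216, edgeR adjusted p = 0.006455, 20.6% of genes called) and lower with shNT in HS578T (-1.77, SE 0.295, adjusted p = 0.001379, 17.9% called). In SUM159PT, with 18.7, 12.3 and 16.4 CPM in siNT against 21.4, 17.6 and 23.7 in shNT, the ranges overlapped and the difference did not pass the test (0.38, SE 0.352, adjusted p = 0.4802, 14.4% called). In TPM the SUM159PT ranges did not overlap, with 2.14 to 5.49 in siNT and 8.69 to 9.30 in shNT, and limma on log2 TPM gave 1.18 (adjusted p = 0.07921). A test of equal differences in the 3 lines, added after these values had been seen, gave a spread of 2.72 between the lowest and the highest line (edgeR, adjusted p = 0.0001414, 13.9% of genes called). In the model over all 52 samples the MDA-MB-231 difference was 0.93 with an adjusted p above the threshold of 0.05.

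The question of the knockdown comparisons was whether NRP2 changes when NRP1 is lost. NRP1 itself was lower in all 12 knockdown groups by its estimate and passed the test in 11. In the order SUM159PT, MDA-MB-231 and HS578T, its log2 fold changes were -4.31, -4.88 and -2.66 with siNRP1#5 and -2.09, -0.70 and -1.20 with siNRP1#3. With shNRP1#3 they were -1.31, -1.48 and -1.59, the last of which missed the threshold (HS578T, edgeR adjusted p = 0.06904), and with shNRP1#5 -2.30, -1.05 and -2.09. In MDA-MB-231 siNRP1#3 the level per length was hardly lower, with 28.5 ± 3.36 TPM of NRP1 against 28.8 ± 3.03 in siNT, although its CPM were 44.7 ± 4.14 against 73.8 ± 11.4. All these NRP1 values add up its forms, whereas the reagents numbered 3 were aimed at the membrane-spanning form.

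NRP2 was not called higher in any of the 12 knockdown comparisons. It was called lower in 4 (SUM159PT shNRP1#5 and MDA-MB-231 siNRP1#3, shNRP1#3 and shNRP1#5), and its estimate was below 0 in 11. At an unadjusted p under 0.05 the counts were 0 higher and 7 lower, and DESeq2 also called 0 higher and 4 lower. In 7 of the 12 groups every sample lay below every control sample in CPM, and in 0 every sample lay above. The share of all genes that separate in this way was not worked out, and groups of 2 or 3 separate easily. The count also depends on the scale. In TPM SUM159PT siNRP1#3 and HS578T siNRP1#3 overlapped their controls, and HS578T shNRP1#3 lay above its own. The others of the 7 groups also lay below in TPM. The CPM scale counts reads, whereas TPM also divides by the length of the transcripts present. For the edgeR calls, 11.3% of all tests over the same 12 comparisons passed, in either direction.

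In MDA-MB-231 the NRP2 level with siNRP1#3 was 10.5, 11.0 and 14.3 CPM, all far below the 3 siNT samples and 31.2% of their mean. The log2 fold change was -1.66 (95% interval -2.13 to -1.19, edgeR adjusted p = 3.467e-05), in a comparison where 25.7% of genes were called. With siNRP1#5, the siRNA with the deepest NRP1 loss, NRP2 was at 30.6, 18.2 and 38.0 CPM. One of these samples lay within the siNT range, and the change did not pass the test (-0.39, interval -0.84 to 0.07, adjusted p = 0.1948, 29.4% called). It passed without siNRP1#5 replicate 3, at -0.62 (adjusted p = 0.04157).

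With shNRP1#3 NRP2 in MDA-MB-231 was at 28.9, 41.7 and 37.4 CPM and with shNRP1#5 at 28.7, 21.9 and 24.9, all below the lowest shNT sample. NRP2 fell by 1.01 on the log2 scale with shNRP1#3 (SE 0.217, edgeR adjusted p = 0.01146, 3.65% of genes called). This call was lost, with an adjusted p above 0.05, in the model over all 52 samples and when the first shNRP1#3 sample (-0.90, adjusted p = 0.06672), the second shNT sample (-0.88, 0.07487) or the third shNT sample (-0.94, 0.06295) was left out. NRP2 fell by 1.52 with shNRP1#5 (SE 0.220, adjusted p = 0.0001416, 20.7% called). Set beside the siNT samples of this line at 36.0 to 41.4 CPM, the shNRP1#3 samples spread around that range and the shNRP1#5 samples lay below it.

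In SUM159PT NRP2 with shNRP1#5 was at 5.06, 5.83 and 10.4 CPM, below all 3 shNT samples and at 33.9% of their mean. It fell by 1.53 on the log2 scale (SE 0.360, edgeR adjusted p = 0.01791, 5.94% of genes called). The call did not hold in limma on log2 TPM (-1.39), nor without the first (-1.33, adjusted p = 0.08835) or second (-1.40, 0.103) shNRP1#5 sample or without shNT replicate 1 (-1.51, 0.0612) or replicate 3 (-1.44, 0.05953). With shNRP1#3 NRP2 was at 11.8, 6.03 and 11.1 CPM, also below every shNT sample, and the log2 difference of -1.11 did not pass the test (SE 0.356, adjusted p = 0.1593, 1.40% called).

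The siRNA groups of SUM159PT had NRP2 at 10.4, 5.13 and 10.4 CPM with siNRP1#3, below all siNT samples (in TPM, at 1.93 to 5.55 against 2.14 to 5.49, they overlapped), and at 6.12 and 12.4 CPM with siNRP1#5, of which 1 sample lay within the siNT range. Neither difference passed the test, at -0.86 (SE 0.355, edgeR adjusted p = 0.1451, 8.66% of genes called) and -0.76 (SE 0.403, adjusted p = 0.2015, 17.9% called). The siNRP1#5 value was -0.38 without siNRP1#5 replicate 2 and -1.35 without siNRP1#5 replicate 3 (edgeR adjusted p = 0.6204 and 0.08897), each leaving 1 sample, whose spread is taken from the other groups. In SUM159PT siNRP1#3 and shNRP1#3 the samples with the same replicate number deviated together, and in a fit that blocked on that number both were called lower, at -0.91 (adjusted p = 0.02633) and -1.15 (adjusted p = 0.02234).

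In HS578T no NRP2 difference passed the test. With siNRP1#3 NRP2 was at 28.0, 25.8 and 44.03 CPM, below every siNT sample (in TPM, at 9.55 to 15.7 against 15.4 to 23.4, they overlapped), with a log2 difference of -0.86 (interval -1.47 to -0.25, edgeR adjusted p = 0.09953, 4.65% of genes called). After the estimated RNA of both other lines, 4.07 to 7.91% of the NRP2 counts, was subtracted it was -0.87 (adjusted p = 0.1314). With siNRP1#5 it was at 40.9, 32.3 and 50.6 CPM, overlapping siNT, with -0.52 (interval -1.13 to 0.08, adjusted p = 0.2176, 18.7% called). These libraries held the most MDA-MB-231 RNA. Subtracting the estimated RNA of both other lines removed 14.6 to 37.3% of their NRP2 counts and gave -0.58 (adjusted p = 0.2112).

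The shRNA groups of HS578T had NRP2 at 27.0 and 15.9 CPM with shNRP1#3 and at 16.9, 16.0 and 11.3 with shNRP1#5, and both overlapped shNT. The log2 differences were 0.31 (interval -0.37 to 0.98, edgeR adjusted p = 0.8584) and -0.22 (SE 0.287, adjusted p = 0.6788). Few genes were called in these comparisons, 0.0356% and 0.946%. Per length the picture differed, with both shNRP1#3 samples, at 7.69 and 8.77 TPM, above the shNT samples at 6.04 to 6.34 TPM, and with 4.98 to 9.15 TPM in shNRP1#5. The log2 estimate for shNRP1#3, the only one above 0, turned to -0.12 without the first shNRP1#3 sample, and the estimate for shNRP1#5 turned to 0.09 in limma on log2 TPM.

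**Figure D2:**
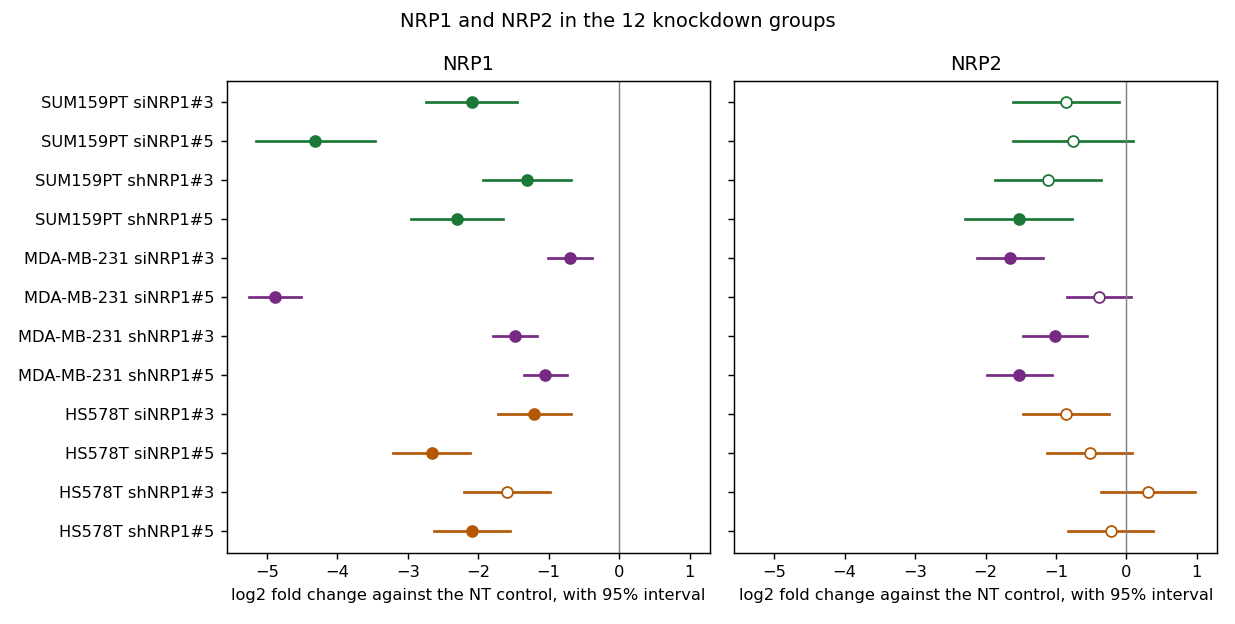
Log2 fold change of NRP1 and of NRP2 in the 12 knockdown groups against their non-targeting controls (horizontal axis), with 95% intervals from edgeR; filled points have an adjusted p under 0.05. NRP1 lies below 0 in all 12 and NRP2 in 11 of 12, from -1.66 in MDA-MB-231 siNRP1#3 to 0.31 in HS578T shNRP1#3.

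The sizes of the NRP1 and NRP2 changes did not follow the same order. In MDA-MB-231 the smallest change in total NRP1 of that line (siNRP1#3, -0.70) came with its largest NRP2 change (-1.66), and the largest NRP1 change (siNRP1#5, -4.88) came with its smallest NRP2 change (-0.39). Total NRP1 can understate the loss with siNRP1#3. That siRNA was aimed at the membrane-spanning form only, and siNRP1#5 at the soluble form too. The order by form of NRP1 was not tested. The test of the difference between these 2 siRNAs in MDA-MB-231 gave 1.27 on the log2 scale for NRP2 (SE 0.222, edgeR adjusted p = 0.000171), in a comparison where 39.0% of genes were called. The difference between the siRNAs was 0.10 in SUM159PT (interval -0.73 to 0.94, adjusted p = 0.8709, 29.7% called) and 0.34 in HS578T (adjusted p = 0.4452, 18.1% called), or 0.29 after the subtraction (adjusted p = 0.5474).

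Between the shRNAs no difference passed. The shNRP1#5 change minus the shNRP1#3 change was -0.51 in MDA-MB-231 (interval -0.96 to -0.06, edgeR adjusted p = 0.1242, 14.2% of genes called), -0.53 in HS578T (adjusted p = 0.596, 0.544% called) and -0.42 in SUM159PT (adjusted p = 0.5705, 8.71% called). The sequence used in both deliveries allowed a test of siRNA against shRNA. In MDA-MB-231 the siNRP1#5 change of NRP2 was 1.14 above the shNRP1#5 change (SE 0.306, adjusted p = 0.01139, 23.7% called), a difference that no longer passed without the samples of replicate 2 (1.10, adjusted p = 0.07136) or replicate 3 (0.88, adjusted p = 0.127). In SUM159PT it was 0.77 (interval -0.34 to 1.89, adjusted p = 0.4273, 2.51% called) and in HS578T -0.30 (adjusted p = 0.8246, 0.854% called).

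Although NRP2 was called in some lines and not in others, no knockdown gave a difference between the lines that passed the test. The spread between the lowest and the highest line was 0.82 for siNRP1#3 (edgeR adjusted p = 0.4499, 3.42% of genes called), 0.36 for siNRP1#5 (0.8525, 18.2%), 1.44 for shNRP1#3 (0.2654, 0.747%) and 1.34 for shNRP1#5 (0.08727, 3.81%). With the replicate number as a block, or with no filter on low counts, the spreads for both shRNAs passed.

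The summed level of both neuropilins was lower with each of the 4 reagents. A fall was largely set in advance, since NRP1 was the target and made up most of the sum in the controls. NRP2 was 6.47 to 36.5% of it there, by group mean. The tests therefore cannot decide the question of compensation. Where NRP1 TPM fell, the values show only that NRP2 TPM did not offset the fall. In MDA-MB-231 siNRP1#3 NRP1 hardly differed per length, with means of 28.5 TPM against 28.8 in siNT. The lower sum there went with NRP2, at 5.37 TPM against 13.6. The mean log2 difference in summed TPM over the 3 lines was -0.68 with siNRP1#3 (-0.33 in MDA-MB-231, -0.50 in HS578T and -1.22 in SUM159PT), with an adjusted p of 0.0005 in a two-sided exact permutation test within lines. It was -2.29 with siNRP1#5, -1.08 with shNRP1#3 and -1.62 with shNRP1#5, each with an adjusted p of 0.00033 over the 4 tests, in the exact permutation test, and lower in 3 of 3 lines. A raw p of 0.00025 is the smallest that the relabellings of these tests can give. As a description, since NRP1 was the target, the share of NRP2 in the summed TPM was 91.4% in MDA-MB-231 siNRP1#5, 77.6% in HS578T siNRP1#5 and 55.9% in SUM159PT siNRP1#5, whereas its own mean level there was below that of siNT. In MDA-MB-231 siNRP1#3 the share was 15.7%, below the 32.2% of siNT.

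**Figure D3:**
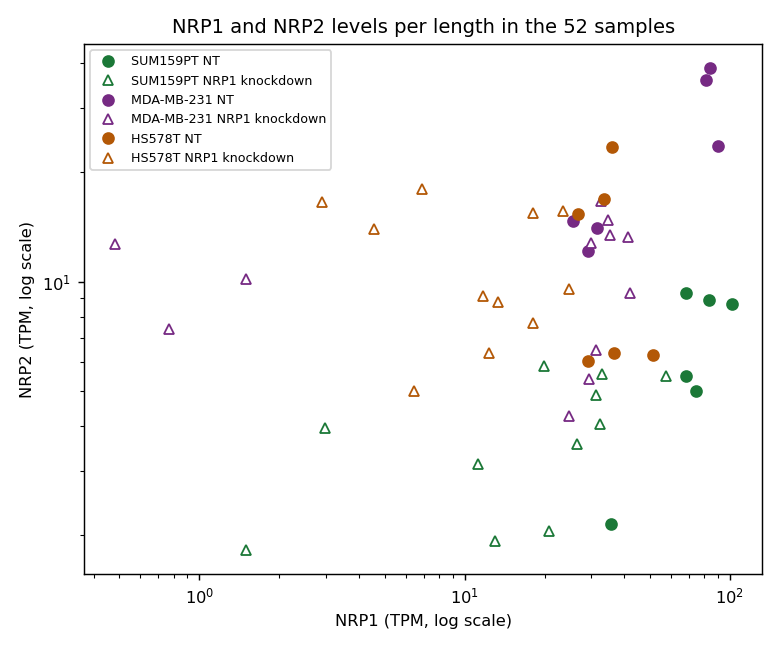
NRP2 TPM (vertical, log axis) against NRP1 TPM (horizontal, log axis) in the 52 samples, coloured by cell line; circles are non-targeting controls and open triangles are NRP1 knockdowns. The siNRP1#5 samples lie farthest to the left, down to 0.48 TPM of NRP1, at NRP2 levels of 1.82 to 18.01 TPM. HS578T shNRP1#3 is the group whose samples lie above their controls in NRP2 TPM.

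The second question was which forms of NRP2 these levels were made of. As mean isoform percent over the 52 samples (the share of a transcript in the TPM of its gene), NRP2-203 led with 22.5%, followed by NRP2-214 with 19.2%, NRP2-206 with 13.6%, NRP2-201 with 8.51%, NRP2-216 with 6.73%, NRP2-204 with 6.48% and NRP2-208 with 5.20%. The other 10 averaged 0.0302 to 4.60%. Among these NRP2-207 took 17.3 to 19.5% in HS578T siNRP1#5, against 0 to 7.23% in HS578T siNT and 0% in HS578T siNRP1#3. This transcript was not tested. Isoform percent is per length and weights short transcripts: as shares of expected counts, the long NRP2-203 had 46.2%, NRP2-201 15.1%, NRP2-204 12.4%, NRP2-206 11.0% and NRP2-214 6.54%. NRP2-216, of 221 bases, had 0.213% of the counts and was at 0 in 27 samples.

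In the non-targeting controls HS578T carried less of its NRP2 in a-type forms than the other lines. The a-type share was 23.1 ± 7.12% in HS578T, 39.2 ± 6.23% in MDA-MB-231 and 40.0 ± 17.4% in SUM159PT (SD, n = 6 each), and HS578T was lower than MDA-MB-231 (adjusted p = 0.0125) and SUM159PT (adjusted p = 0.02143) in the exact permutation test. The b-type share was highest in MDA-MB-231, 20.5 ± 2.10% against 13.4 ± 3.13% in SUM159PT and 11.2 ± 4.04% in HS578T (adjusted p = 0.0125 for both, exact permutation test). The soluble NRP2-206 took 18.1 ± 2.87% in HS578T, 10.7 ± 6.11% in SUM159PT and 6.49 ± 2.09% in MDA-MB-231, and HS578T was above MDA-MB-231 (adjusted p = 0.0125) and SUM159PT (adjusted p = 0.0375, exact permutation test). NRP2-214 took 23.9 ± 5.30% in HS578T, 13.3 ± 6.42% in SUM159PT and 5.95 ± 2.36% in MDA-MB-231, and all 3 pairs of lines differed (adjusted p from 0.0125 to 0.025, exact permutation test). Of 15 tests between lines 10 passed, and the smallest p that 400 relabellings allow is 0.005.

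**Figure D4:**
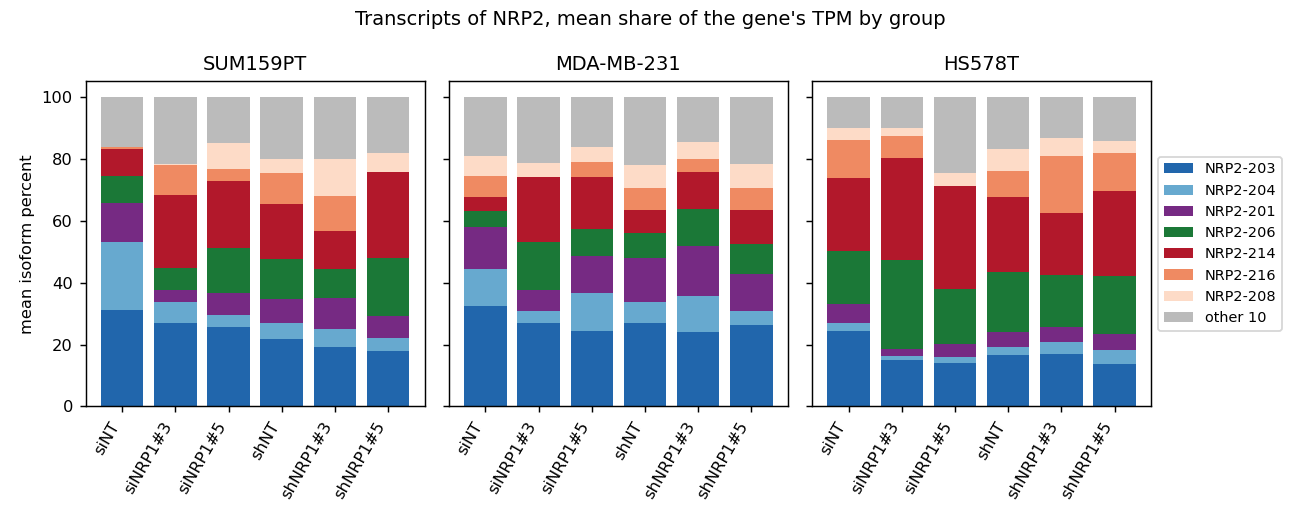
Mean isoform percent of NRP2 transcripts in each of the 18 groups (vertical axis, stacked to 100), with the 7 transcripts that average at least 5% shown separately and the other 10 pooled. The NRP2-214 share is larger in the siNRP1 groups than in siNT in each line.

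With both NRP1 siRNAs the membrane-spanning forms made up less of NRP2 than with siNT, in all 3 lines. With siNRP1#3 the a-type share was 14.5 percentage points lower than with siNT (-13.6 in MDA-MB-231, -10.6 in HS578T and -19.4 in SUM159PT), with an adjusted p of 0.00333 in the exact permutation test over 20 tests. With siNRP1#5 it was 14.1 points lower (-8.03, -11.0 and -23.4 in the same order, adjusted p = 0.007, exact permutation test). The b-type share was lower by 5.36 points with siNRP1#3 (adjusted p = 0.00333) and by 4.22 points with siNRP1#5 (adjusted p = 0.01) in the same exact test, and lower in 3 of 3 lines with each.

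The share of NRP2-214, the short 5′ transcript, was higher. In MDA-MB-231 its share was 6.85, 4.90 and 1.88% with siNT, 22.3, 21.9 and 19.5% with siNRP1#3 and 13.4, 22.2 and 14.6% with siNRP1#5, with no overlap between control and knockdown. In SUM159PT it was 4.63, 8.26 and 13.2% with siNT, 27.4, 21.7 and 21.9% with siNRP1#3 and 28.0 and 14.9% with siNRP1#5, again without overlap. In HS578T the ranges overlapped, from 16.8 to 30.7% with siNT, 28.9 to 35.4% with siNRP1#3 and 28.5 to 38.9% with siNRP1#5. The siNT shares of the other lines rest on few reads. NRP2-214 had 7.18 to 20.5 expected counts in SUM159PT siNT and 9.07 to 25.2 in MDA-MB-231 siNT. These counts, not scaled to library size, overlapped those of both siRNAs in SUM159PT (15.1 to 41.9 with siNRP1#3). In MDA-MB-231 they did not. Over the lines the share was 13.6 points higher with siNRP1#3 (adjusted p = 0.00333) and 11.5 points higher with siNRP1#5 (adjusted p = 0.00375, exact permutation test), higher in 3 of 3 lines.

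As shares of expected counts the same shifts were smaller, 5.39 and 4.97 points higher for NRP2-214 and 9.39 and 9.51 points lower for the a-type, and all passed (adjusted p = 0.00167 for both NRP2-214 tests, 0.02833 and 0.005 for the a-type, exact permutation test). In isoform percent the shares of NRP2-203 and NRP2-206 did not pass with any reagent. As shares of expected counts NRP2-206 was higher with siNRP1#3 by 7.88 points (adjusted p = 0.027) and with siNRP1#5 by 4.45 points (adjusted p = 0.03938, exact permutation test), and with a replicate block on isoform percent NRP2-203 with siNRP1#3 and NRP2-206 with siNRP1#5 passed. The largest difference in isoform percent was -8.03 points for NRP2-203 with siNRP1#5 (adjusted p = 0.1067, exact permutation test).

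The TPM of each form show which of them were lower and which were not. The a-type level was 6.06 ± 0.626 TPM in MDA-MB-231 siNT, 1.64 ± 0.251 with siNRP1#3 and 3.78 ± 1.54 with siNRP1#5. In HS578T it was 4.97 ± 1.31, 2.08 ± 0.687 and 2.54 ± 0.300 TPM, and in SUM159PT 2.05 ± 0.504, 1.16 ± 0.381 and 0.870 ± 0.495 TPM. In each line both knockdown means were below the siNT mean. NRP2-214 was at 0.623 ± 0.376 TPM in MDA-MB-231 siNT, 1.13 ± 0.161 with siNRP1#3 and 1.63 ± 0.246 with siNRP1#5. In SUM159PT it was at 0.363 ± 0.259, 0.870 ± 0.406 and 0.550 ± 0.057 TPM, and in HS578T at 4.38 ± 1.40, 4.43 ± 1.14 and 5.38 ± 0.979. The mean level of NRP2-214 was thus above that of siNT in each siNRP1 group, although by less than the SD of siNT in HS578T with either siRNA and in SUM159PT with siNRP1#5. By sample, the NRP2-214 TPM overlapped siNT in every siNRP1 group except MDA-MB-231 siNRP1#5 (1.37 to 1.86 against 0.26 to 1.01). The levels by form were not tested. The 6 retained-intron transcripts of NRP2 together took 42.9 ± 16.0% of its TPM in HS578T siNT. With siNRP1#3 and siNRP1#5 they took 45.9 ± 12.6% and 40.25 ± 3.51%. In the same order they took 24.3 ± 5.45%, 30.2 ± 2.50% and 30.2 ± 9.71% in MDA-MB-231, with overlap in both lines. In SUM159PT they took 10.4 ± 3.62%, 36.0 ± 13.05% and 37.6 ± 4.81%, without overlap. These shares were not tested. Retained-intron transcripts of all genes together took 8.85 to 11.1% of all TPM over the 52 samples.

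**Figure D5:**
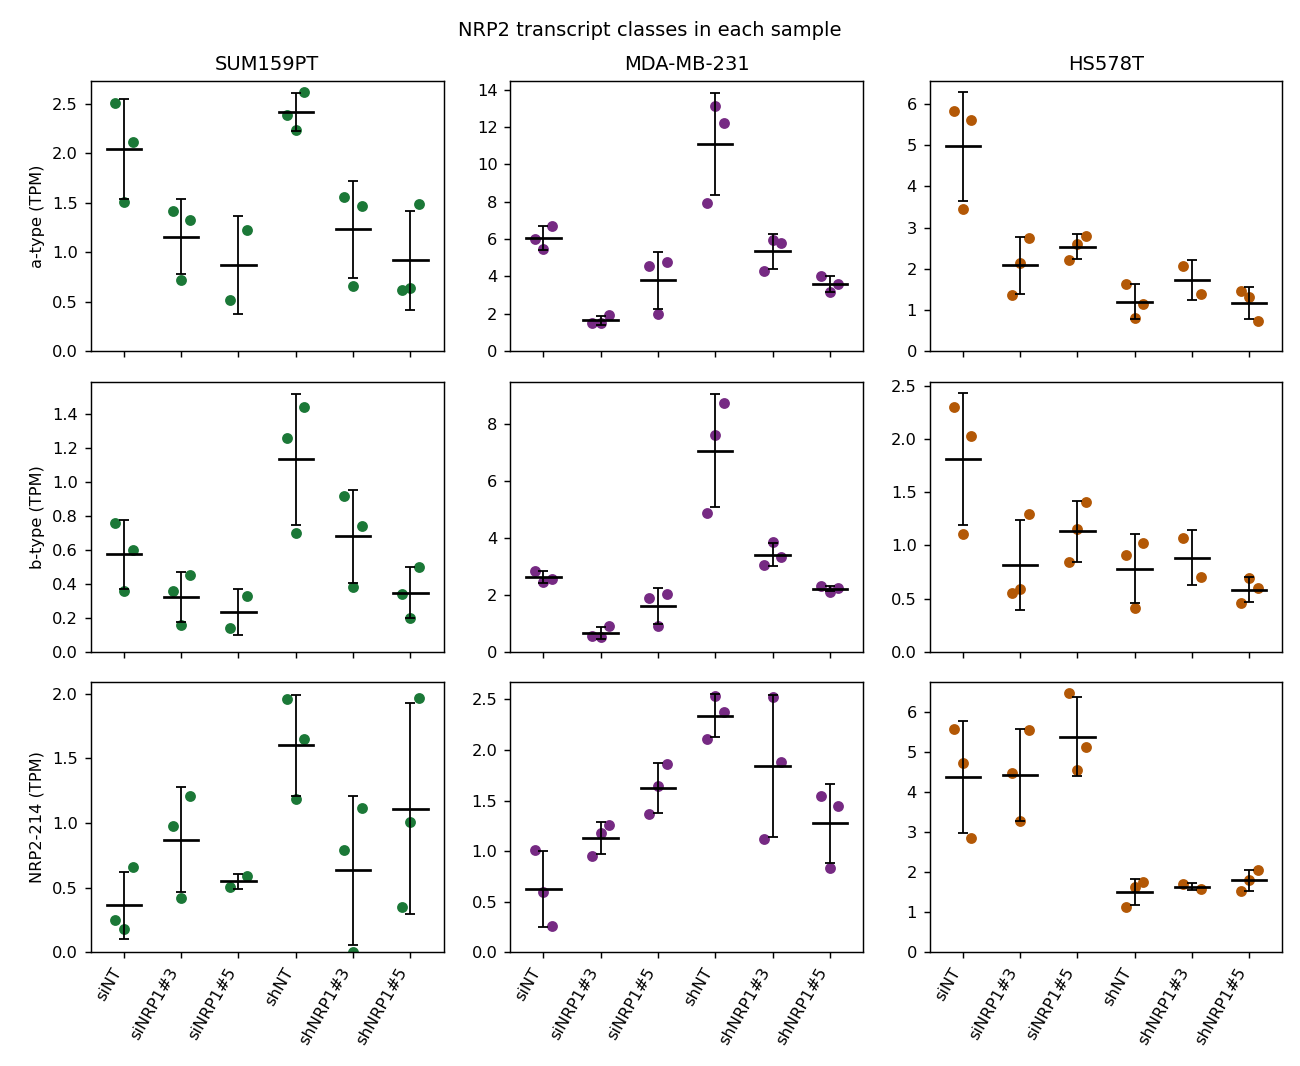
Level (TPM, vertical axes with a scale of their own in each panel) of the a-type, the b-type and the NRP2-214 transcript in each sample; points are samples and bars are group means with SD. The a-type is lower with both NRP1 siRNAs than with siNT in each line, and NRP2-214 is not.

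With the shRNAs no isoform share passed the test: of 20 tests 0 passed for shNRP1#3 and 0 for shNRP1#5, against 3 for siNRP1#3 and 3 for siNRP1#5. The a-type share differed from shNT by 0.434 points with shNRP1#3 (adjusted p = 0.9011) and by -1.75 points with shNRP1#5 (adjusted p = 0.6247), and NRP2-214 by -1.60 (adjusted p = 0.72) and 5.53 points (adjusted p = 0.1067; all exact permutation tests). Of these 10 shRNA tests 1, NRP2-214 with shNRP1#5, had an unadjusted p under 0.05 (0.048). Whether the siRNA and shRNA shifts differ was not tested. The shNT controls already had a lower a-type share than siNT, by 14.8 points (-10.7 in MDA-MB-231, -7.51 in HS578T and -26.1 in SUM159PT, adjusted p = 0.00375 over 5 tests, exact permutation test). NRP2-203 was also lower with shNT, by 7.54 points (adjusted p = 0.03688).

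Around NRP2 stand its ligands, co-receptors and adaptors, of which 38 genes were listed and 36 were tested in at least 1 line. Over the 12 knockdown comparisons 41 of their 384 tests were called higher and 49 lower, 23.4% in all against 11.3% of all tests of all genes. The list was fixed with earlier results of these data known, so the larger share is no independent result. HS578T siNRP1#5, whose libraries held MDA-MB-231 RNA, gave 8 of the higher and 3 of the lower calls. The ligands, class 3 semaphorins and VEGF family members, had 20 higher and 17 lower calls in 136 tests. The co-receptors, plexins, VEGF receptors, MET and integrins, had 13 higher and 19 lower in 120. The adaptors and modifying enzymes had 7 higher and 5 lower in 36, the related membrane proteins 0 higher and 3 lower in 40, and the transcription factors 1 higher and 5 lower in 52.

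The calls were uneven between comparisons. In MDA-MB-231 siNRP1#5, 14 of 32 genes were higher and 5 lower, 59.4% against 29.4% of all genes, with a median log2 fold change of 0.44 for the list and 0.01 for all genes. In SUM159PT siNRP1#3, 1 of 30 was higher and 10 lower, 36.7% against 8.66% of all genes (median -0.74 for the list and -0.01 for all genes). In HS578T shNRP1#3 edgeR called 0 of 34 and 0.0356% of all genes, with 0 higher and 8 lower at an unadjusted p under 0.05, and DESeq2 called 0 higher and 2 lower.

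Among the ligands SEMA3G was lower in 5 of 12 comparisons, 4 of them in MDA-MB-231, with log2 fold changes down to -1.91 there, although its mean was only 0.270 TPM. SEMA3E was higher in 5 and SEMA3D in 4, at means of 0.714 and 0.876 TPM. One call of each was in HS578T siNRP1#5, whose libraries held MDA-MB-231 RNA, and the non-targeting controls had 1.38 TPM of SEMA3E in MDA-MB-231 against 0.04 in HS578T. That RNA's part in these calls was not tested. VEGFB, the most abundant ligand of the list at 131 TPM, was higher in 1 comparison and lower in 1.

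Among the co-receptors PLXNA1, a signalling partner of neuropilins for semaphorins, was lower in 6 of 12 comparisons, from -2.12 in SUM159PT siNRP1#3 (edgeR adjusted p = 0.000216) to -0.80 in MDA-MB-231 shNRP1#5, and its estimate was below 0 in all 12. MET, the receptor of hepatocyte growth factor, was higher in 5 of 12, all of them siRNA groups, by 1.14 to 2.06 on the log2 scale. In the shRNA groups MET differed by -0.33 to 0.30 with no call. ITGB1, the beta-1 integrin chain and the most abundant co-receptor at 208.5 TPM, was lower in 1. GIPC1, the adaptor for the a-type tail, averaged 197 TPM and was higher in 3, while DCBLD2, a relative with like domains, averaged 45.4 TPM and was lower in 1. NR2F2, a transcription factor that regulates NRP2 in endothelium, averaged 27.2 TPM, higher in 1 comparison and lower in 2.

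The calls of the neighbours of NRP2 on chromosome 2 stand beside 11.3% of all tests of all genes called over the same 12 knockdown comparisons, so few calls were usual. NRP2-AS1, which lies within NRP2 on the minus strand at chr2:205756469-205764006, reached at most 1 count and was above 0 in 5 samples. PARD3B, 61828 bases before NRP2, was higher in 1 of 12 knockdown comparisons and lower in 1, and INO80D, 195588 bases after it, was lower in 1. As a description over the 52 samples and 14625 genes, which share libraries and cell lines, the genes whose log2 CPM resembled that of NRP2 most were NEURL1B, HABP4 and CDKN2D (Pearson r of 0.80 each), GPC6 (0.80) and MXRA7 (0.79). After each gene was centred within its cell line they were ENSG00000286177 (0.81), PTGFRN (0.78), APMAP (0.78), GASK1A (0.76) and EXT2 (0.74). NRP1 had an r of 0.35 on the centred scale.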

How the data were processed

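RNA was collected from 3 breast cancer cell lines in 18 groups (52 samples), and the authors sequenced stranded poly(A) libraries with paired ends. Per the submitters' processing notes the tools were Trim Galore 0.6.5, FastQC 0.11.9, STAR 2.7.2b and RSEM 1.3.3 on GRCh38. The authors left out 2 outlying samples, which are not analysed here. The deposited tables hold RSEM expected counts and TPM per gene, and TPM and isoform percent (the percent of a gene's TPM) per transcript. RSEM divides reads that fit several transcripts by a model, so isoform values carry an uncertainty that the files do not give.

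NRP2 was found by its symbol, but it was proposed, and the gene lists and tests were chosen, with earlier results of these data known. Expected counts were rounded and fitted per cell line with edgeR 4.0.16 in R 4.3.3 (filterByExpr, TMM, 6 group means, robust quasi-likelihood F test, Benjamini-Hochberg over 18800 genes for MDA-MB-231, 19661 for HS578T and 20067 for SUM159PT, threshold 0.05). Differences between lines used all 52 samples. Log2 CPM had a prior count of 2. Isoform shares of transcripts with a mean of at least 10%, of the a-type and of the b-type, and log2 of summed TPM + 0.1, were compared by two-sided exact permutation tests within lines (within delivery for comparisons of lines). Fits and permutation tests were first tested on simulated data.

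The p-values measure the spread between these samples, which for the shRNA groups are passages of 1 culture. The SUM159PT and HS578T groups of 2 samples borrow their spread from the other groups. Same-numbered samples were checked for shared deviations: in 4 of 13 comparisons with 3 pairs every correlation was above 0.1, a sign of pairing from the data and not from the labels. Depth was 25310443 to 72003442 expected counts per sample.

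Genes named were NRP2 with its transcripts of at least 5% mean share, NRP1, listed pathway genes called the same way in at least 4 of 12 comparisons or highest in their subgroup, the 5 genes most like NRP2 on each of 2 scales (mean of at least 1 CPM), and overlapping or adjacent genes. RNA of another line was estimated from genes at no more than 0.5 CPM in all controls of one line and at least 20 CPM in all of the other. Alternatives were DESeq2 1.42.0, limma 3.58.1 on log2(TPM + 0.1), other size factors, no filter, a replicate block, 1 model over all samples, only the groups compared, subtraction of the RNA of both other lines and leaving out samples. Transcript structures came from GENCODE 44, in which all 17 NRP2 transcripts matched the deposited identifiers and versions, and bases from the GRCh38 genome. No protein sequences were used.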

Additional observations from a re-analysis of the deposited data

Results flagged for a closer look

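In MDA-MB-231 the NRP2 change with siNRP1#5 was 1.27 above that with siNRP1#3 on the log2 scale (edgeR adjusted p = 0.000171), so 2 siRNAs against the same gene differed in their NRP2 readout in this line, and 39.0% of all genes differed between them.

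In the same line the change of NRP2 with sequence 5 was 1.14 higher when it was delivered as siRNA than as shRNA (edgeR adjusted p = 0.01139). This difference did not pass without the samples of replicate 2 or replicate 3.

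The difference of NRP2 between shNT and siNT had opposite signs in MDA-MB-231 and HS578T, with a spread of 2.72 over the 3 lines (edgeR adjusted p = 0.0001414). This test was added after the values had been seen, and no NRP1 reagent is part of it.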

How the results depend on the processing

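Of 667 alternative values over 78 results, 537 kept their direction and their side of the threshold, 84 lost a call, 23 gained one and 23 turned direction. NRP2 was not called higher in any of 12 knockdown comparisons under any of 9 settings, and was called lower in 4 under the main, relative log expression, DESeq2, subtracted, 2-group and 52-sample settings, in 6 with no filter, 7 with the replicate block and 3 in limma on TPM. The summed neuropilin results, whose fall was largely set by the targeting of NRP1, kept their call in all 24 alternatives. The replicate block for the shNT comparison and the summed level, and the spread of the shNT differences, were chosen after seeing the data. The causes of the changes below were not tested, but leaving out a replicate or a line also leaves fewer relabellings, so that an isoform call is harder to reach.

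With the replicate block NRP2 was called in SUM159PT siNRP1#3 (-0.91) and shNRP1#3 (-1.15) and in HS578T siNRP1#3 (-0.86), whose samples showed no pairing. So were the spreads over lines of shNRP1#3 (1.54) and shNRP1#5 (1.41) and, for shares, NRP2-203 with siNRP1#3 (-6.45 points) and NRP2-206 with siNRP1#5 (3.33), while NRP2-203 between shNT and siNT (-7.54) lost its call. With no filter SUM159PT shNRP1#3 (-1.11), HS578T siNRP1#3 (-0.87), the MDA-MB-231 difference between shRNAs (-0.51) and the spreads of shNRP1#3 (1.45) and shNRP1#5 (1.36) were called. In 1 model over 52 samples SUM159PT shNRP1#3 (-1.11) was called, and MDA-MB-231 shNRP1#3 (-1.01) and shNT against siNT (0.93) were not. In limma on TPM SUM159PT shNRP1#5 (-1.39) was not called and HS578T shNRP1#5 turned to 0.0897.

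Without single samples the log2 values ranged from -1.91 to -1.33 for SUM159PT shNRP1#5, -1.20 to -0.88 for MDA-MB-231 shNRP1#3, -0.62 to -0.15 for MDA-MB-231 siNRP1#5, -0.12 to 0.64 for HS578T shNRP1#3, -0.34 to 0.25 for the SUM159PT difference between siRNAs and 0.88 to 1.40 for the MDA-MB-231 difference between deliveries.

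Shares changed more often, here in percentage points. As shares of expected counts NRP2-203 with siNRP1#3 (1.07) and between HS578T and SUM159PT (2.36) turned direction, NRP2-203 between HS578T and MDA-MB-231 (-1.95) and between shNT and siNT (-3.80) lost its call, and NRP2-206 with siNRP1#3 (7.88), siNRP1#5 (4.45) and shNT (3.96) and the b-type with shNT (4.27) gained one. With only the transcripts of at least 5%, the a-type with shNRP1#3 (-1.52), the a-type between SUM159PT and MDA-MB-231 (-0.599) and the b-type with shNT (-1.61) turned direction, NRP2-206 between HS578T and SUM159PT (8.05), the b-type between SUM159PT and MDA-MB-231 (-4.78) and NRP2-203 with shNT (-7.50) lost their call, and the b-type between HS578T and SUM159PT (-6.29) gained one.

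Without SUM159PT, NRP2-203 with siNRP1#5 (-9.28) and NRP2-206 with siNRP1#3 (10.9) gained a call, NRP2-206 (0.567), NRP2-214 (0.302) and the b-type (-0.327) with shNRP1#3 turned direction, and the b-type with siNRP1#5 (-3.17), NRP2-203 (-6.57) and the a-type (-9.12) with shNT lost theirs. Without MDA-MB-231, the siNRP1#3 and siNRP1#5 calls of NRP2-214 (12.0 and 11.2), the a-type (-15.0 and -17.2) and the b-type (-4.52 and -4.49) and the shNT calls of NRP2-203 (-8.64) and the a-type (-16.8) were lost, and with shNRP1#3 the a-type (-0.198) and the b-type (-0.394) turned. Without HS578T, NRP2-206 (0.208) and the a-type (-0.052) with shNRP1#3 turned, and the a-type (-15.7) and b-type (-5.01) with siNRP1#5 and NRP2-203 with shNT (-7.40) lost their call. Comparisons between lines had no such alternative.

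Without 1 replicate number the siNRP1#3 and siNRP1#5 ranges were 12.9 to 14.7 and 9.70 to 14.0 for NRP2-214, -17.2 to -13.1 and -17.2 to -10.4 for the a-type and -6.07 to -4.72 and -4.75 to -3.51 for the b-type. With shNRP1#3 they were -0.922 to 1.33 for the a-type and -0.772 to 1.52 for the b-type, and with shNRP1#5 -5.47 to 1.62 for NRP2-203 and -3.18 to 0.172 for the a-type. Between shNT and siNT they were -10.1 to -3.27 for NRP2-203, 1.59 to 5.35 for NRP2-206, -18.2 to -11.1 for the a-type and -0.54 to 3.49 for the b-type. The 6 isoform calls with siNRP1#3 and siNRP1#5 were lost whichever replicate number was left out. So was the shNT call of NRP2-203, and that of the a-type was lost in 1 case.

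Between HS578T and MDA-MB-231 these ranges were -10.8 to -6.44 for NRP2-203, 10.6 to 13.2 for NRP2-206, 15.7 to 20.2 for NRP2-214, -18.4 to -13.2 for the a-type and -10.4 to -7.37 for the b-type. Between HS578T and SUM159PT they were -9.75 to 1.44 for NRP2-203, 5.82 to 9.10 for NRP2-206, 7.28 to 12.5 for NRP2-214 and -20.5 to -10.1 for the a-type. Between SUM159PT and MDA-MB-231 they were 5.40 to 8.46 for NRP2-214, -3.10 to 3.99 for the a-type and -7.72 to -6.73 for the b-type. The 10 calls between lines were also lost whichever replicate number was left out.

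Counting precision was lowest in SUM159PT, where NRP2 had as few as 202 expected counts and single transcripts were at 0 in some samples.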
